A study of Caenorhabditis elegans with 2 samples.

Results

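Proteasome subunit genes and the cdc-48 genes of Caenorhabditis elegans were examined for promoter binding of CTBP-1, which belongs to the family of C-terminal binding protein (CtBP) corepressors. The members were the protein-coding genes named pas-, pbs-, rpt- or rpn-, plus cdc-48.1 and cdc-48.2, which gave 35 of 19973 protein-coding genes on nuclear chromosomes (Ensembl release 115 on WBcel235, the sequence of build ce11). They comprised 14 core particle genes, 19 regulatory particle genes and 2 cdc-48 genes. All were present in the annotation under a single locus each. Chromatin immunoprecipitation and sequencing was done on whole L4 larvae, 48 hours old, grown from starved L1 larvae after bleaching. The strain was RW12203, genotype st12203[ctbp-1::TY1::EGFP::3xFLAG] X, in which CRISPR insertion tagged ctbp-1 at its own locus, and the antibody recognised GFP. Both biological replicates were of this strain and stage, so there was 1 group, no second condition, and no statistical test of a site. Whole animals were used, so a peak does not show in which tissue, or in what fraction of cells, the DNA was bound.

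The 26S proteasome degrades proteins marked with ubiquitin. Its core particle is a barrel of alpha rings, built from the PAS proteins, around beta rings, built from the PBS proteins, which hold the proteolytic sites. The regulatory particle caps the barrel. Its RPT proteins form an ATPase ring that unfolds substrates, and its RPN proteins form the scaffold, the ubiquitin receptors and the lid that removes ubiquitin. CDC-48, known as p97 or VCP in mammals, is an AAA ATPase that extracts ubiquitinated proteins from complexes and membranes and passes them on to the proteasome. In worms, the transcription factor SKN-1A raises proteasome gene expression when proteasome activity falls.

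A gene was counted as having a promoter summit when the highest point of a thresholded peak lay between 1000 bp upstream and 250 bp downstream of one of its transcript 5′ ends. Many worm transcripts are trans-spliced, so an annotated 5′ end need not be where transcription starts. Of the 35 members, 6 met this rule in the thresholded list that combines both replicates (the combined list), a share of 17.1%, against 7.12% of all protein-coding genes. They were cdc-48.1, rpn-3, pbs-1, rpn-11, cdc-48.2 and rpn-7, in order of signal. Without the cdc-48 genes the count was 4 of 33 (12.1%). The reference sequences under these 6 summits (ce11, 50 bp on either side of the summit, on the strand of the named gene) are shown because they are the sites on which the results rest. Capitals mark matches to the motif sets described further on. No 2 matches overlapped.
cdc-48.1, chrII:10563508-10563608, minus strand: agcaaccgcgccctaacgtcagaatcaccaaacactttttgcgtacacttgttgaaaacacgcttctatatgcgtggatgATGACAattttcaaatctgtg
rpn-3, chrIII:8447097-8447197, plus strand: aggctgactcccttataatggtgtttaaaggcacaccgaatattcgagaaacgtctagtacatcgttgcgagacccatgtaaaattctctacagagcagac
pbs-1, chrIV:1709849-1709949, minus strand: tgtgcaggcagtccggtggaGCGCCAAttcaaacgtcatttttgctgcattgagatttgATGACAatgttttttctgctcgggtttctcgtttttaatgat
rpn-11, chrII:4044508-4044608, minus strand: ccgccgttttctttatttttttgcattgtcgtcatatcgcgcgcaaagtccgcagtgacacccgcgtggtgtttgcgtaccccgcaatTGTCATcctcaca
cdc-48.2, chrII:8138248-8138348, plus strand: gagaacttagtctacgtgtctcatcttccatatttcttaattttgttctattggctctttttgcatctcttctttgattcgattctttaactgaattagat
rpn-7, chrIV:9316027-9316127, plus strand: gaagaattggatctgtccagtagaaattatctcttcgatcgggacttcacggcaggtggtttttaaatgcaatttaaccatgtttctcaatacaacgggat

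The cdc-48 genes both had a promoter summit, but with very different signal values. The signal value is the authors' own measure of each peak and has no stated unit, so it was used only to rank and describe peaks within a list. Values from different lists are given side by side, and their sizes were not compared. At cdc-48.1 (WBGene00007352, II 10560036 to 10563407) the peak from 10563432 to 10563689 had its summit at 10563558, between genes and 151 bp upstream of the 5′ end. Its signal was 269 in replicate 1, 279 in replicate 2 and 546 in the combined list. It ranked 17 by signal among 2927 peaks, some of them not nuclear, and stood in the upper 0.206% of the 2911 nuclear peaks. It passed the threshold in the own list of each replicate. No other protein-coding 5′ end had this summit in its promoter window, the nearest being that of C06A1.6 at 1120 bp. At cdc-48.2 (WBGene00008053, II 8138496 to 8141230), the paralogue encoding the other CDC-48 protein, the summit lay at 8138298, also between genes and 198 bp upstream. Its signal was 33.3 in replicate 1, 43.9 in replicate 2 and 69.6 in the combined list, and it ranked 2103. Neither replicate's own list held it as a thresholded peak. The combined signal at cdc-48.1 was thus 7.85 times that at cdc-48.2, and the gap had the same direction in both replicates. The longest run of bases shared by the peak sequences of both genes was 10 bp.

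Among core particle genes, 1 of 14 had a promoter summit (7.14%, against 7.12% of all genes). None of the 7 alpha ring genes had one. Of the 7 beta ring genes, pbs-1 (WBGene00003947, IV 1708814 to 1709745) did. Its summit at IV 1709899 lay between genes, 154 bp upstream of pbs-1 and 366 bp from the 5′ end of the divergent gene K08D12.3, which shared the summit in its own window. The signal was 35.0 in replicate 1, 37.0 in replicate 2 and 80.7 in the combined list. Neither replicate's own thresholded list held it. A second, overlapping thresholded peak at IV 1710106 had a signal of 9.16 and lay nearer to K08D12.3, at 159 bp.

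Among regulatory particle genes, 3 of 19 had a promoter summit (15.8%, against 7.12% of all genes). All 3 were of the RPN class, which has 13 genes here (23.1%). The lid genes were not counted as a set. All 3 encode lid subunits, as do others of the class, such as rpn-6.1 and rpn-9, which had no promoter summit. None of the 6 ATPase ring genes had one. At the looser threshold described further on, 2 of these 6 did (33.3%) and 5 of the 13 RPN genes (38.5%), against 10.4% of all genes. There the core share was 4 of 14 (28.6%). In the conservative thresholded list, 1 of 19 regulatory genes (5.26%) and 1 of 14 core genes (7.14%) had a promoter summit, against 6.70% of all genes. In a window of 2000 bp upstream to 500 bp downstream the shares were 26.3% for regulatory and 28.6% for core genes, against 10.0%. The largest signal was at rpn-3 (WBGene00004460, III 8447353 to 8449346), with the summit at III 8447147, between genes and 206 bp upstream. Its signal was 74.3 in replicate 1, 64.8 in replicate 2 and 141 in the combined list, and it passed in the own lists of both replicates. This summit was shared with the divergent gene hsp-110, which encodes a large Hsp70-family chaperone and whose 5′ end lay 238 bp away on the other side.

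At rpn-11 (WBGene00004467, II 4043055 to 4044546), the gene of the lid metalloprotease that removes ubiquitin chains from substrates, the summit at II 4044558 lay 12 bp upstream of a 5′ end and in no other gene's promoter window. Its signal was 25.4 in replicate 1, 44.5 in replicate 2 and 78.1 in the combined list. Only the list of replicate 2 held it above the threshold. At rpn-7 (WBGene00004463, IV 9316631 to 9318632) the summit at IV 9316077 lay 554 bp upstream, inside the coding sequence of the divergent neighbour F49C12.9 and 138 bp from that gene's 5′ end. Its signal was 24.5 in replicate 1, 30.9 in replicate 2 and 54.9 in the combined list, the lowest of the 6 in each, and it passed in neither replicate's own list. With each summit given only to the nearest 5′ end, rpn-7 was the 1 member lost, leaving 5 of 35 against 5.74% of all genes. It was also lost in a window of 500 bp upstream to 100 bp downstream, which left 5 against 5.12%. The peaks of rpn-11 and rpn-7 were absent from the conservative thresholded list, where 4 of 35 members had a promoter summit against 6.70% of all genes.

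**Figure D1:**
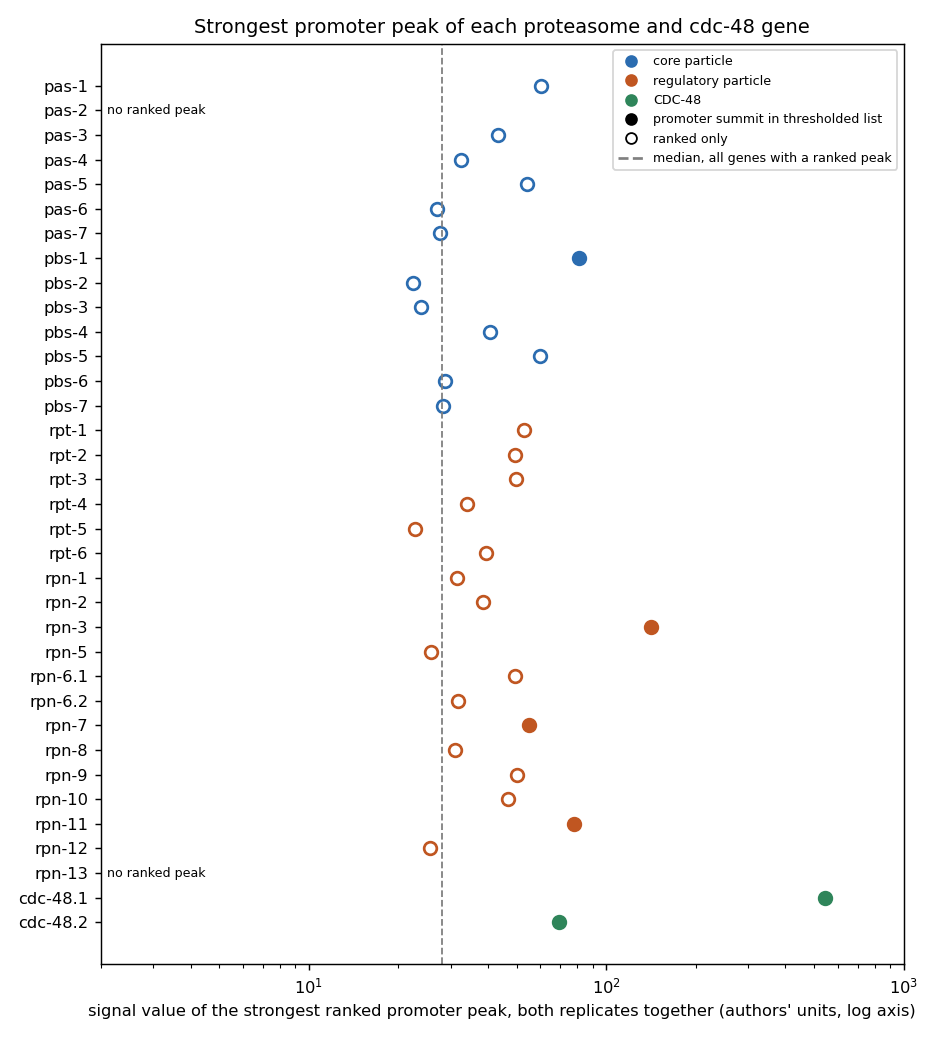
Signal value of the strongest ranked promoter peak of each of the 35 members in the combined ranked list (authors' units, log axis), coloured by complex part. Filled circles have a promoter summit in the thresholded list, open circles do not, and the dashed line is the median of all genes with a ranked peak, 28.1. The peak of cdc-48.1 (546) stands apart, followed by rpn-3 (141), and pas-2 and rpn-13 have no ranked peak.

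The strongest promoter peak of each of the 6 genes was taken. Their median signal was 79.4 (range 54.9 to 546), against 87.6 over all 1303 nuclear promoter peaks, weaker peaks of a gene included. Apart from cdc-48.1 and rpn-3, the member peaks lay below 87.6. In the upper 0.5 of nuclear peaks by signal those 2 members remained, against 4.16% of all genes. Distances from the 5′ end ranged from 12 to 554 bp with a median of 176 bp, against a median of 270 bp over all 1422 genes with a promoter summit. No tRNA, snoRNA or snRNA gene lay within 200 bp of any of these summits, and with summits at such genes left out the count stayed at 6 of 35, against 6.55% of all genes. In 3 of the 6 (pbs-1, rpn-3 and rpn-7) the summit also fell in the promoter window of a divergent neighbour, so that these peaks cannot be given to the proteasome gene alone. The share of all promoter summits that fall in more than 1 gene's window was not counted.

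Thresholded summits also lay near other members, outside the promoter window. Within 2000 bp upstream to 500 bp downstream, 11 of 35 members had a summit, against 10.0% of all genes. The 5 added members were pas-5, pbs-2, pbs-5, rpt-6 and rpn-12, with summits 1074 to 1997 bp upstream. For 4 of them another gene's 5′ end was nearer. It was gale-1 for pbs-2 (36 bp), K05C4.2 for pbs-5 (196 bp), the histone gene his-72 for rpt-6 (138 bp) and coa-7 for rpn-12 (6 bp). At pas-5 the summit lay 1113 bp upstream with a signal of 129, its own 5′ end was the nearest, and the snoRNA gene F25H2.15 lay within 200 bp. In the own list of replicate 2, a summit with signal 32.3 lay 931 bp upstream of pas-5, within the promoter window. The combined peak at 1113 bp overlapped a thresholded peak of replicate 2, and whether it was this one was not checked.

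**Figure D2:**
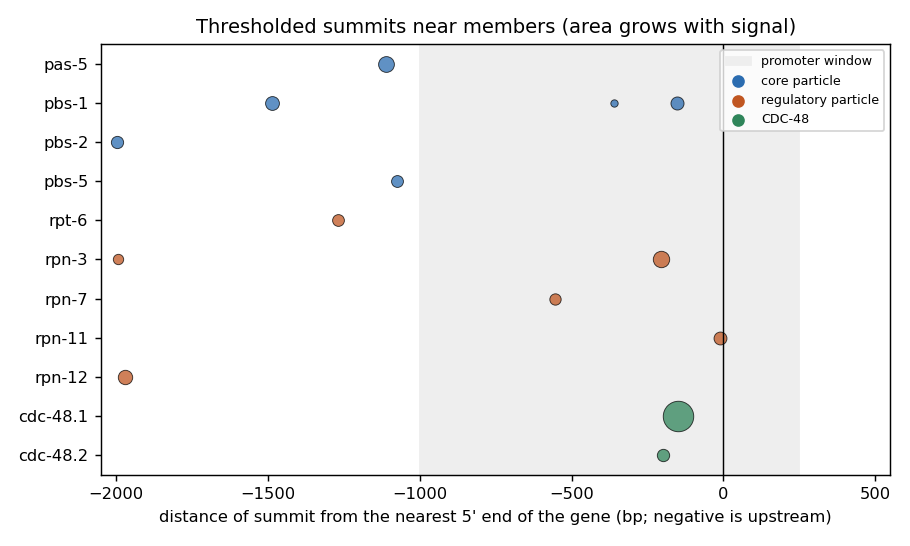
Positions of the combined thresholded summits within 2000 bp upstream to 500 bp downstream of a 5′ end, for the 11 members that have one. The x axis is the distance from the 5′ end in bp, the shaded band is the promoter window, colours give the complex part and the marker area grows with the signal value. The summits of 6 members lie inside the band, and 5 of these members have their strongest summit there within 206 bp of the 5′ end.

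Most members carried only ranked peaks that missed the threshold. The ranked list is permissive, and 61.8% of all genes had a ranked peak in the promoter window, so its peaks are not evidence of binding. Of the 35 members, 33 had one. Among these, the strongest ranked promoter peak exceeded the median signal of all genes with a ranked peak (28.1) in 26 members and the upper quartile (41.5) in 16, and in none was it below the lower quartile (18.7). In the own ranked lists, 30 of 35 members had a ranked promoter peak in replicate 1 (42.8% of all genes) and 32 in replicate 2 (45.2%). The medians were 32.4 for the 13 core genes with a ranked peak and 43.1 for the 18 regulatory genes. By ring they were 37.9 for pas- genes, 28.8 for pbs- genes, 44.3 for rpt- genes and 42.7 for rpn- genes. The ranges overlapped, from 22.4 to 80.7 for the core genes and from 22.8 to 141 for the regulatory genes.

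Among the 27 members with only ranked peaks, the strongest ran from 22.4 to 60.4, with a median of 33.9 against 26.0 over all genes without a promoter summit. The highest were at pas-1 (60.4), an alpha ring gene, at pbs-5 (59.9), a beta ring gene, and at pas-5 (54.1). The lowest were at pbs-2 (22.4), at rpt-5 (22.8), an ATPase gene, and at pbs-3 (23.8). The ubiquitin receptor gene rpn-13 and the alpha ring gene pas-2 had no ranked peak in the combined list, and single peaks with signals of 4.49 and 4.77 in the list of replicate 2. Between these extremes the strongest ranked signal was 49.5 at rpn-6.1, a lid gene, and 31.7 at its paralogue rpn-6.2. It was 31.4 and 38.5 at rpn-1 and rpn-2, the scaffold genes of the base, and 46.9 at rpn-10, the other ubiquitin receptor gene of this class.

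The threshold is set on the global irreproducible discovery rate (IDR), which asks whether a peak keeps its rank between paired lists, and not on signal. Every thresholded peak had a global IDR of 0.01 or less. The members nearest to it on the inside were rpn-11 and rpn-7, with -log10 global IDR values of 2.03 and 2.04. The nearest on the outside were rpn-9 (1.90, signal 50.2), a lid gene, pas-1 (1.80) and pbs-5 (1.76). The peaks of pas-1 and pbs-5 thus had a larger signal than that of rpn-7 and still missed the threshold. A global IDR above 0.01 and up to 0.05 was found at 7 members (20.0%), namely pas-1, pas-3, pbs-5, rpt-1, rpt-3, rpn-8 and rpn-9, against 3.29% of all genes. A further 3, pbs-4 (signal 40.6), rpt-4 (33.9) and rpn-2 (38.5), had a value up to 0.1 (8.57%, against 2.30%). The remaining 17 with a ranked peak had a value above 0.1 (48.6%, against 49.1%). They were pas-4, pas-5, pas-6, pas-7, pbs-2, pbs-3, pbs-6 and pbs-7 of the core, rpt-2, rpt-5 and rpt-6 of the ATPase ring, and rpn-1, rpn-5, rpn-6.1, rpn-6.2, rpn-10 and rpn-12. At the looser threshold of 0.05, which was chosen after seeing the data, 13 of 35 members had a promoter summit against 10.4% of all genes. Of these, 4 were core genes, 7 regulatory genes and 2 cdc-48 genes.

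The replicates were then set side by side. In the own thresholded list of replicate 1, 2 of 35 members had a promoter summit (rpn-3 and cdc-48.1), against 3.78% of all genes. In that of replicate 2, 4 members did (pas-5, rpn-3, rpn-11 and cdc-48.1), against 4.52% of all genes. Taken from the combined list, 2 of the 6 peaks were matched by overlapping thresholded peaks in both replicates, 1 in replicate 2 alone, and 3 in neither. Among all nuclear promoter peaks, 39.3% overlapped one in both and 33.1% in neither. Counting only combined peaks that passed in both replicates, a setting chosen after seeing the data, 2 of 35 members had a promoter summit (5.71%) against 3.03% of all genes. The strongest promoter peak of each of the 6 members had a ranked peak within 100 bp of its summit in each replicate. The signals of these matches ran from 24.5 to 269 in replicate 1 and from 30.9 to 279 in replicate 2. The second, weaker peak of pbs-1 had no such match in either replicate. The share of all promoter peaks with such a match was not counted, and a ranked peak is not evidence of binding.

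Across the members, 27 genes had a ranked promoter peak in the lists of both replicates. The strongest was taken in each list separately, so the values of a gene need not come from the same site. The Spearman correlation, which uses ranks within each list, was 0.536 across these genes, against 0.626 across 6162 genes in the whole annotation. The genes share the same libraries and are not independent. For rpt-1 and pas-3 the values were 13.4 and 13.8 in replicate 1 and 40.8 and 39.6 in replicate 2. For rpt-3 and pbs-5 the values of 44.4 and 33.4 in replicate 1 had no ranked promoter peak beside them in replicate 2. These 4 genes are among the 7 that lay just outside the threshold.

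**Figure D3:**
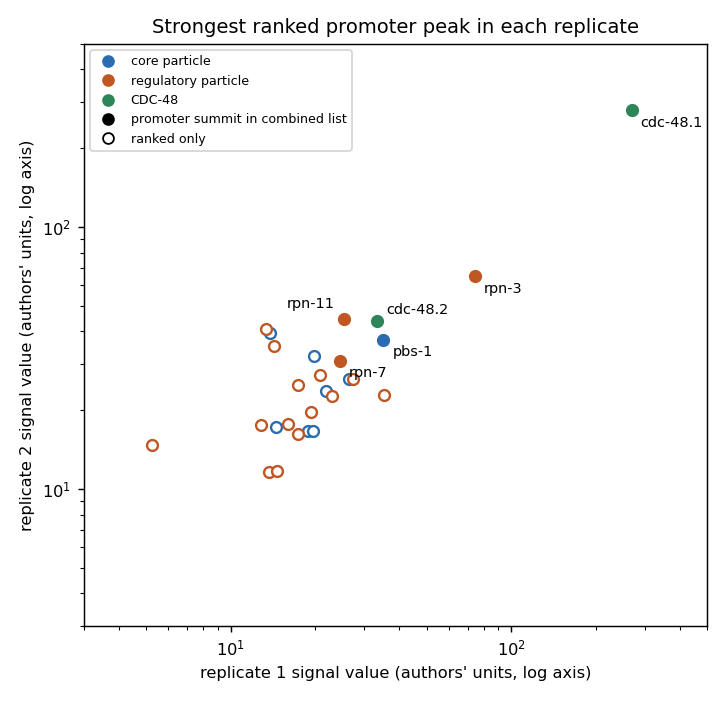
Signal value of the strongest ranked promoter peak in replicate 1 (x axis) and replicate 2 (y axis), in authors' units on log axes, for the 27 members with a value in both. Filled circles have a promoter summit in the combined thresholded list and colours give the complex part. cdc-48.1 (269 and 279) and rpn-3 (74.3 and 64.8) are the highest members on both axes.

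The sequences under the summits were searched on both strands, within 75 bp of the summit, for 5 motif sets. The first was the repeat GAGAGA. The KLF and SP set took either CCACCC or else the variant CCGCCC. The E2F and DREAM set took TTCCCGC with its variants TTCGCGC and then TTGCCGC and then TTGGCGC. The E-box was CACGTG. The core of the SKN-1 site was read as TGTCAT or else as TATCAT. The repeat GAGAGA was in none of the 6 member windows, against 31.3% of all 2911 nuclear summit windows and 30.2% of the 1303 at promoter peaks. The KLF and SP set (14.3% of all nuclear windows, 15.3% at promoter peaks) and the E-box (4.60% and 4.37%) were also in none. The E2F and DREAM set was in 3 (pbs-1, rpn-11 and cdc-48.1), against 10.2% of all windows and 12.1% at promoter peaks. The SKN-1 core was in the same 3, against 10.7% and 10.2%. With 6 windows these counts are a description only, and a match is not a bound site. In the sequences printed above, the SKN-1 core began 30 bp downstream of the summit at cdc-48.1 and 9 bp downstream at pbs-1, on the opposite strand in both, and 38 bp downstream at rpn-11 on the gene's own strand. The E2F and DREAM match of pbs-1 began 30 bp upstream of its summit. G and C made up 33.8% (cdc-48.2) to 45.0% (rpn-11) of the 6 windows, all below the median of 46.4% over all promoter peaks.

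Over the promoters of all 35 members (250 bp upstream to 50 bp downstream of the annotated gene start), the SKN-1 core was present in 16 (45.7%), against 32.3% of the promoters of all protein-coding genes. Of those 16, 4 also had a promoter summit (pbs-1, rpn-7, rpn-11 and cdc-48.1). The summit of rpn-7, 554 bp upstream, lay outside the stretch searched here. The E2F and DREAM set was in 6 (17.1%, against 9.20%), of which pbs-1, rpn-11 and cdc-48.1 had a promoter summit. For neither set was the share with a promoter summit counted among all genes that carry it, so these overlaps are a description only. GAGAGA was in 7 (20.0%, against 21.8%), the KLF and SP set in 2 (5.71%, against 12.9%) and the E-box in 1 (2.86%, against 5.82%).

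The members also shared an arrangement in the genome. The nearest protein-coding neighbour on the 5′ side was divergent and within 1000 bp at 21 members (60.0%), against 21.3% of all genes. These classes took in neighbours that overlap the gene on that side, as rpoa-49 does at rpt-4. Of these 21, 3 had a promoter summit (pbs-1, rpn-3 and rpn-7), or 14.3%, against 10.7% of all genes so arranged. At the looser threshold it was 6 of 21 (28.6%), against 15.4%. A same-strand neighbour ended within 500 bp upstream of 8 members, of which rpn-11 had a promoter summit, against 5.80% of all such genes. At the looser threshold 4 of these 8 did, against 9.18%, as did both members with a same-strand neighbour more than 500 and up to 1000 bp away (rpt-1 and cdc-48.1, against 6.74%) and 1 of the 4 with no neighbour within 1000 bp, against 9.52%. The part of this arrangement in the counts above was not tested. By chromosome, 10 members lay on I, 9 on II, 8 on III, 3 on IV, 5 on V and 0 on X. The 6 with a promoter summit were 3 on II (6.38% of all genes there), 2 on IV (6.86%) and 1 on III (9.81%). None of the 10 on I (9.24%) or of the 5 on V (4.45%) had one. With so few members per chromosome these counts are a description only.

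A list of 40 further genes of the ubiquitin pathway, the cofactors of CDC-48, proteasome regulators and the COP9 signalosome was also counted. Of these, 7 had a promoter summit (17.5%, against 7.12% of all genes). The strongest was at eel-1 (signal 292, with 140 and 173 in replicates 1 and 2), and the next at wwp-1 (251, with 133 and 116). Both encode HECT-type ubiquitin ligases, and both peaks passed in the lists of both replicates. The ubiquitin genes followed, ubq-2 with 120 (57.5 and 62.1) and ubq-1, the polyubiquitin gene, with 116 (61.3 and 54.3) and 87.1 (46.1 and 56.8) at its 2 summits, all passing in both replicates. The 5′ end of frg-1 lay nearer to the ubq-2 summit, at 164 bp against 475 bp.

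Weaker peaks lay at ufd-3 (71.2, with 36.5 and 44.8), which encodes a CDC-48 cofactor, at akir-1 (67.5, with 25.9 and 40.2), where the 5′ end of E01A2.1 was nearer, and at uba-1 (60.1, with 16.4 and 29.2), the gene of the ubiquitin-activating enzyme. The ufd-3 and uba-1 peaks passed in neither replicate's own list and the akir-1 peak in that of replicate 2. The remaining 33 genes had no promoter summit. They included skn-1 itself, its processing factors png-1 and ddi-1, and the CDC-48 partners ufd-1, npl-4.1 and npl-4.2. The gene named cdc-48.3, which is not a member, and the COP9 signalosome genes csn-1 to csn-6 were also among them.

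**Figure D4:**
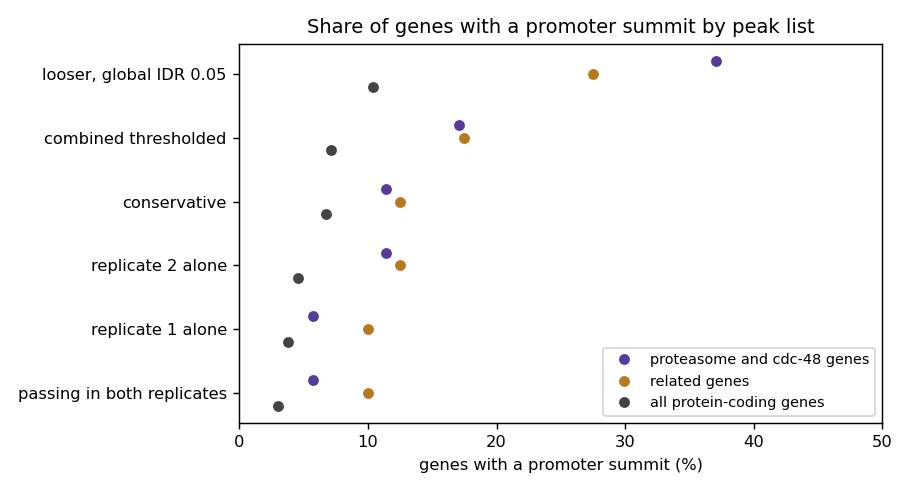
Percent of genes with a promoter summit under 6 peak lists, for the 35 members, the 40 related genes and all protein-coding genes. Points for the members run from 5.71% (replicate 1 alone, and peaks passing in both replicates) to 37.1% (looser threshold), and those for all genes from 3.03% to 10.4%.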

How the data were processed

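The deposited files were 8 peak lists on ce11, per the labels. Each of the 2 replicates had a thresholded and a ranked list (1404 and 1715 thresholded peaks in replicates 1 and 2), and the combined (series-level) lists, which derive from both replicates per the deposited file listings, included a main thresholded list of 2927 peaks (2911 nuclear) and a ranked list of 85313. The signal value and the score (the scaled IDR) of each peak were computed by the authors and deposited with it, and the deposited ranked lists also hold the -log10 of the global IDR. All 2927 main peaks were among the 2955 ranked peaks with a global IDR of 0.01 or less. The sources used here name no aligner, peak caller, version or read number, so the depth is unknown. The 16 columns of single-input values in the series-level ranked lists were not used.

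Summits were counted from 1 and assigned to promoter windows of protein-coding genes with Python 3.11.15 and numpy 2.4.6. The assignment and the motif search were tested on simulated data. Replicate values are the strongest ranked peak within 100 bp of the combined summit, and passing in a replicate means overlapping one of its thresholded peaks by at least 1 bp. All members were described by name, with full values for those with a promoter summit. The members, the related list and the motifs were chosen with earlier results of these data known, so no test of the list was made. Other peak lists, single replicates, windows, assignments and thresholds were tried as alternatives.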

Additional observations from a re-analysis of the deposited data

How the results depend on the processing

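Counts of the 35 members with a promoter summit ranged from 2 to 13 around the value of 6. Without a replicate, using the other's own list, they were 2 to 4 for the members, 0 to 1 for core genes, 1 to 2 for regulatory genes, 1 in each for cdc-48 genes, 4 to 5 for the related genes, and 3.78% to 4.52% for all genes. In the conservative list 1 regulatory gene had a promoter summit and all genes stood at 6.70%. The wide window gave 11 members, 4 core genes, 5 regulatory genes and 10.0% of all genes, and the narrow window (500 bp upstream to 100 bp downstream) gave 5.12% of all genes. Nearest 5′ ends alone gave 5.74%, and leaving out summits at small RNA genes 6.55%. The upper 0.5 of the peaks by signal gave 2 members, 0 core genes, 1 regulatory gene, 1 cdc-48 gene, 4 related genes and 4.16% of all genes, with a median member signal of 344. The looser threshold gave 13 members, 4 core, 7 regulatory and 11 related genes, 10.4% of all genes and a median signal of 59.9. Peaks passing in both replicates gave 2 members, 0 core genes, 1 regulatory gene, 1 cdc-48 gene, 4 related genes and 3.03%, with a median of 344. With motif windows of 50 bp on either side, 1 member window held the E2F and DREAM set in place of 3. The cause of these moves was not tested. No paired analysis was possible because there was 1 group. Depth is unknown, so absence of a peak is not evidence that CTBP-1 was not bound.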
